A study of Mus musculus with 10 samples.

Results

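The 5 miRNA hairpins described here, mmu-mir-33, mmu-mir-122, mmu-mir-375, mmu-mir-378a and mmu-mir-204, were chosen by name for their roles in lipid, insulin and islet biology. All 5 had reads, among 1136 miRNA hairpins listed in at least 1 library and 1470 small RNA features in all. Small RNA was sequenced from mature sperm of C57BL/6J F0 males, collected from the tail of the epididymis and the vas deferens. The 5 HFD-F0 samples came from males on a high-fat diet with 42% of kcal as fat and the 5 CD-F0 samples from males on a control diet with 10%, each begun at 4 weeks of age and kept up for 10 weeks. Nothing in the sources used here says how many mice stand behind a sample, so p-values measure the spread between these samples. The comparison asks whether the diet of the father went with other levels of these miRNAs in his sperm.

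A miRNA is cut from a hairpin precursor and loaded into Argonaute, where bases 2 to 8 of the mature strand, the seed, pair with target mRNAs. miR-33 lies inside the gene of SREBP2, a regulator of cholesterol synthesis, and represses the cholesterol exporter ABCA1. miR-122 is the dominant miRNA of hepatocytes and supports cholesterol and lipid metabolism there. miR-375 is the best known islet miRNA and restrains insulin secretion, although other endocrine and epithelial cells make it too. miR-378a comes from an intron of Ppargc1b, the gene of the coactivator PGC-1β, and acts on mitochondrial metabolism. miR-204 comes from an intron of Trpm3 and lowers insulin production in β cells through the transcription factor MafA.

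The mature strands below, from RefSeq (GRCm38.p6), are shown because shared letters decide which reads can be assigned to 1 hairpin, with the seed in capitals.
mmu-miR-33-5p: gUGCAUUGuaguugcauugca
mmu-miR-204-5p: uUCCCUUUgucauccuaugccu
mmu-miR-211-5p: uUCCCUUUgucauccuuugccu
mmu-miR-378c: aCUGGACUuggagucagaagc
mmu-miR-378d: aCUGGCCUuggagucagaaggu
The seed of mmu-miR-33-5p occurred in 1 of the 1738 mature miRNAs of the table. That of mmu-miR-204-5p occurred in 3, itself, mmu-miR-211-5p and mmu-miR-7670-3p. Over their 22 bases, counted from 1 at the 5′ end, mmu-miR-204-5p and mmu-miR-211-5p differed by A17U. mmu-miR-378c and mmu-miR-378d, relatives of miR-378a by name, differed by A6C and C21G over the 21 bases compared, and the first of these lies in the seed. The files give reads per hairpin and not per arm, so the strand behind a value was not analysed here.

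On GRCm38.p6, Mir33 lies at chr15:82198122-82198190 on the plus strand, in an intron of Srebf2 on the same strand. Mir204 lies at chr19:22750605-22750672 on the plus strand, in an intron of Trpm3 on the same strand. Mir211, from chr7:64205806-64205911 on the plus strand, is likewise intronic, in Trpm1. Mir375 lies at chr1:74900658-74900721 on the minus strand, between genes in the GENCODE M21 annotation.

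The 5 miRNAs were all present in every library by the minimum used here, 10 estimated reads. The fewest reads of any member in any library were 108, for mmu-mir-122 in CD-F0 replicate 5, where the exact 95% Poisson interval was 88.6 to 130.4 reads. Levels are given as RPM, reads for every 1000000 clean reads of a library, which need no division by length since each read is a whole small RNA. By mean RPM over the 10 libraries, mmu-mir-375 stood at rank 72 of the 1136 hairpins, mmu-mir-378a at 111, mmu-mir-204 at 157, mmu-mir-122 at 234 and mmu-mir-33 at 235. For scale, 462 hairpins had at least 10 reads in each of the 10 libraries and 455 had a mean above 1 RPM. The most abundant hairpin, mmu-mir-143, had a mean of 26257 RPM. mmu-mir-375 took 0.293% of all miRNA reads and mmu-mir-33 took 0.0127%. All reads of the 5 members matched the genome.

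**Figure D1:**
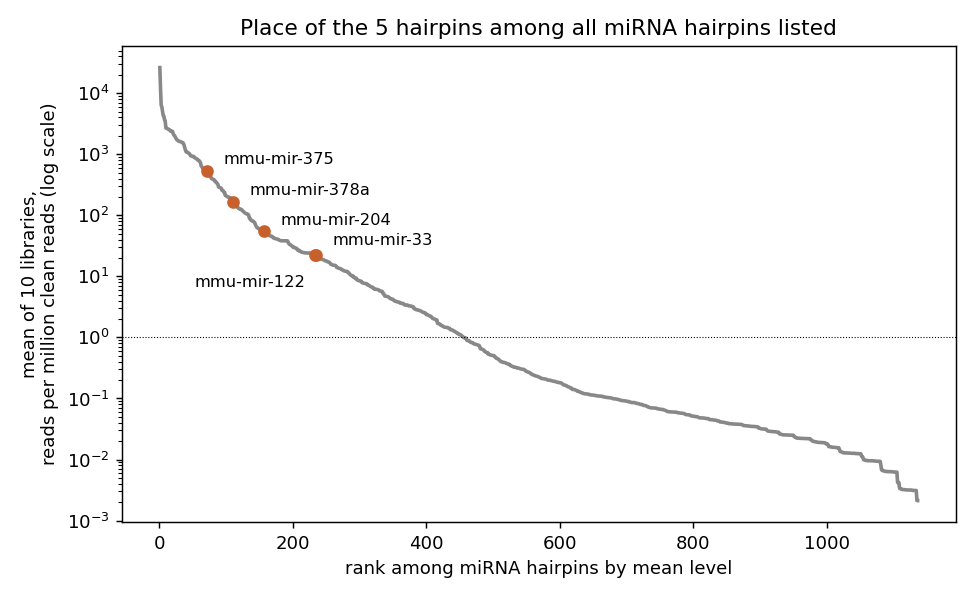
Mean level over the 10 libraries (vertical axis, RPM, log scale, dotted line at 1 RPM) against rank (horizontal axis) for the 1136 miRNA hairpins listed, with the members as points. They fall at ranks 72 to 235, well above 1 RPM, and mmu-mir-33 and mmu-mir-122 lie on the same spot of the curve.

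The order of the levels was steady at the top. mmu-mir-375 was the first of the 5 in 10 of 10 libraries and its range, 431 to 685 RPM, lay apart from that of mmu-mir-378a, 86.9 to 217 RPM. mmu-mir-378a in turn did not overlap with mmu-mir-204, 33.4 to 74.7 RPM. mmu-mir-204 and mmu-mir-33 overlapped, as the latter ranged from 12.8 to 42.3 RPM. mmu-mir-122 ranged from 3.45 to 100.8 RPM, so its place next to mmu-mir-33 was not separable from the spread between libraries. It was the fifth of the 5 in 8 libraries, yet in CD-F0 replicate 4 it was the second, above mmu-mir-378a.

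Neighbours in the order of mean RPM had similar levels. mmu-mir-375 stood between mmu-mir-24-1 at 533 ± 265 RPM (SD, n = 10) and mmu-mir-411 at 510 ± 156 RPM (SD, n = 10). mmu-mir-378a stood between mmu-mir-374b and mmu-mir-340, and mmu-mir-204 between mmu-mir-883a and mmu-mir-190b. mmu-mir-5121 was just above mmu-mir-122, and mmu-mir-669p-1 just below mmu-mir-33.

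**Figure D2:**
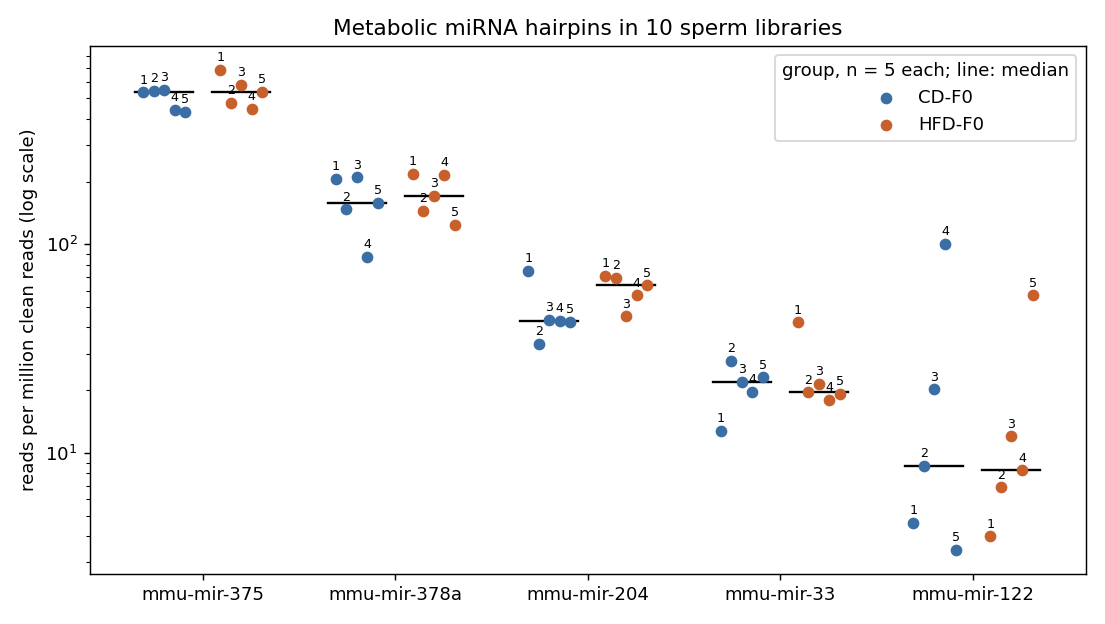
Level of each member (vertical axis, RPM, log scale) in the 5 CD-F0 libraries (blue) and the 5 HFD-F0 libraries (orange), with the replicate number at each point and the group median as a line. The groups overlap for every member, and mmu-mir-122 has 1 high library in each group, CD-F0 replicate 4 at 100.8 RPM and HFD-F0 replicate 5 at 57.1 RPM.

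The libraries held 29558751 to 32178088 clean reads, of which miRNAs took 14.5% to 23.5%, the highest share being in HFD-F0 replicate 1 and the lowest in HFD-F0 replicate 5. The germ cell miRNAs mmu-mir-34b, mmu-mir-34c and mmu-mir-449a summed to 7272 to 15059 RPM. Markers of other cells were also present: 6 of 6 epithelial markers had at least 10 reads in every library (summed level 3969 to 6756 RPM in the CD-F0 group and 5520 to 9463 RPM in the HFD-F0 group), as had 6 of 6 muscle markers (21352 to 29447 RPM and 15875 to 36525 RPM) and 6 of 6 blood markers (1544 to 2537 RPM and 1432 to 3140 RPM). Most of the muscle sum was mmu-mir-143, with means of 25077 RPM in CD-F0 and 27437 RPM in HFD-F0. The means of mmu-mir-1a-1 were 151 and 149 RPM, and those of mmu-mir-133a-1 were 77.0 and 82.6 RPM. In such bulk samples, fewer cells of a type and less RNA per cell cannot be told apart. The part of these other cells in the levels of the 5 members was not tested. Of the exocrine pancreas markers mmu-mir-216a, mmu-mir-216b and mmu-mir-217, 0 of 3 reached 10 reads in any library, and their summed level was 0 to 0.591 RPM.

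None of the 5 miRNAs passed the test between HFD-F0 and CD-F0. In edgeR's quasi-likelihood test over all 814 features with enough reads, 0 of the 5 members had a Benjamini-Hochberg adjusted p under 0.05, beside 0.123% of all features. The study's own thresholds, an unadjusted p of at most 0.05 with a log2 fold change of at least 1 in size, were passed by 0 of 5 members and by 3.69% of all features. An unadjusted p under 0.05 was found for 0 of 5 members and for 10.2% of all features. DESeq2 also called 0 of the 5 by the adjusted p. The median log2 fold change of the members was 0.02, beside -0.05 for the 529 miRNA hairpins tested and -0.01 for all features. With clean reads as the library size, the scale of the RPM values, the median of all features was 0.09, so RPM ratios lie above the fitted fold changes by about that shift.

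**Figure D3:**
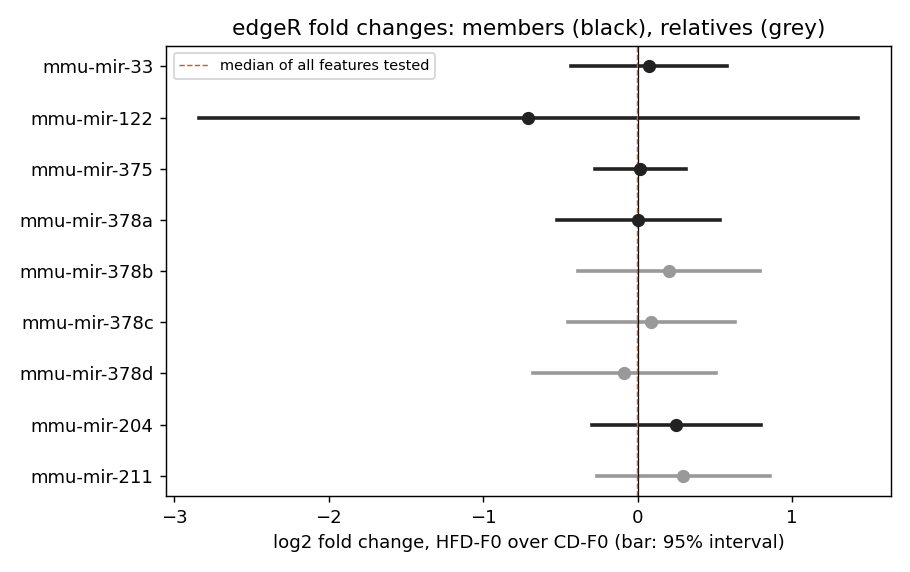
Log2 fold change of HFD-F0 over CD-F0 (horizontal axis, bars for the 95% interval from edgeR) for the members in black and their relatives in grey, with a dashed line at the median of all features tested. Every bar crosses 0, and that of mmu-mir-122, from -2.84 to 1.42, is the longest of those drawn.

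mmu-mir-375, the islet miRNA, was the most even of the members. In the CD-F0 replicates 1 to 5 it was at 536, 542, 551, 442 and 431 RPM. In the HFD-F0 replicates 1 to 5 it was at 685, 475, 581, 447 and 540 RPM. The groups overlapped, with 2 of 5 HFD-F0 samples above the highest CD-F0 sample and 2 of 5 CD-F0 samples below the lowest HFD-F0 sample. Group means were 500.4 ± 58.5 RPM in CD-F0 against 546 ± 94.1 RPM in HFD-F0 (SD, n = 5 each; two-sided exact permutation p = 0.397, where 5 against 5 libraries can reach 0.00794). Its log2 fold change was 0.02 (standard error 0.13, 95% interval -0.28 to 0.31, adjusted p = 0.991 from edgeR), with a sign that turned in 7 of 19 alternative fits. Among the 321 hairpins with at least 100 reads in every library, 303 had a larger coefficient of variation over the 10 libraries than its 14.8%.

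mmu-mir-378a, which acts on mitochondrial metabolism, was at 206, 147, 210, 86.9 and 158 RPM in the CD-F0 replicates 1 to 5. The HFD-F0 replicates 1 to 5 had 217, 145, 171, 216 and 124 RPM. The lowest library of each group was CD-F0 replicate 4 and HFD-F0 replicate 5, the same libraries in which mmu-mir-122 was highest. These libraries also had the lowest miRNA share of clean reads in their groups, 15.4% and 14.5%. RPM is taken over all clean reads, and the part of the miRNA share in this order was not tested. With 161 ± 50.2 against 175 ± 41.7 RPM (SD, n = 5 per group), the difference missed the threshold (two-sided exact permutation p = 0.667). The log2 fold change was 0.01 (standard error 0.24, 95% interval -0.52 to 0.53, adjusted p = 0.991 from edgeR). Its direction turned with the scaling: the ratio of the means was 1.08 over clean reads and 0.991 over miRNA reads.

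The estimated reads of mmu-mir-378a were not whole in 9 of 10 libraries, as they are where a read fits several hairpins and is split, so its level and those of its relatives are not independent. mmu-mir-378c was at 83.8 ± 27.5 RPM in CD-F0 against 95.8 ± 19.8 RPM in HFD-F0 (SD, n = 5 each). mmu-mir-378d had 57.4 ± 19.1 and 58.8 ± 18.6 RPM (SD, n = 5 per group), and mmu-mir-378b had 3.80 ± 1.09 and 4.77 ± 1.997 RPM (SD, n = 5 per group). Within the family, mmu-mir-378a took 51.1% to 54.4% of the estimated reads in each library, a share that depends on how shared reads were split. Summed over the 4 hairpins, the level was 306 ± 97.5 RPM in CD-F0 against 334 ± 81.1 RPM in HFD-F0 (SD, n = 5 each), 1.09 times as high (two-sided exact permutation p = 0.635).

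mmu-mir-204 had the largest positive log2 fold change of the members. The CD-F0 replicates 1 to 5 were at 74.7, 33.4, 43.6, 43.2 and 42.4 RPM. The HFD-F0 replicates 1 to 5 were at 70.6, 69.3, 45.2, 57.1 and 63.8 RPM. Of the CD-F0 samples, 4 of 5 lay below every HFD-F0 sample, and CD-F0 replicate 1 lay above all of them. The means were 47.5 ± 15.8 and 61.2 ± 10.4 RPM (SD, n = 5 per group), a ratio of 1.29 (two-sided exact permutation p = 0.151). Over miRNA reads the ratio was smaller, 1.19 (two-sided exact permutation p = 0.325), as it was over genome-matched reads, 1.21 (two-sided exact permutation p = 0.333). On the log2 scale it was 1.32 (two-sided exact permutation p = 0.135). In edgeR the log2 fold change was 0.25 (standard error 0.25, 95% interval -0.30 to 0.80, adjusted p = 0.803). Without CD-F0 replicate 1 the ratio was 1.504 (two-sided exact permutation p = 0.0159, the smallest that 5 against 4 samples allow), and the log2 fold change was 0.52 with an adjusted p of 0.332 from edgeR. Whether mmu-mir-204 passes the exact test therefore depends on that library.

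mmu-mir-211, from an intron of Trpm1, has the same seed as miR-204 and varied with it from library to library. It was at 28.6 ± 10.3 RPM in CD-F0 against 38.01 ± 6.31 RPM in HFD-F0 (SD, n = 5 each), a ratio of 1.33 (two-sided exact permutation p = 0.111). The estimated reads of both were not whole in 6 of 10 libraries, so reads were split between hairpins, and CD-F0 replicate 1 was the highest CD-F0 library for both. Summed, they were at 76.0 ± 26.1 and 99.2 ± 16.6 RPM (SD, n = 5 per group; two-sided exact permutation p = 0.143).

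mmu-mir-33, the miRNA of the Srebf2 gene, was at 12.8, 27.7, 22.0, 19.6 and 23.1 RPM in the CD-F0 replicates 1 to 5. In the HFD-F0 replicates 1 to 5 it was at 42.3, 19.5, 21.5, 17.96 and 19.3 RPM. The HFD-F0 samples other than replicate 1 fell within the range of the CD-F0 samples. The difference between the group means, 21.1 ± 5.46 and 24.1 ± 10.2 RPM (SD, n = 5 per group), missed the threshold (two-sided exact permutation p = 0.698). Without HFD-F0 replicate 1 the HFD-F0 mean was 19.6 ± 1.46 RPM (SD, n = 4) and the log2 fold change turned from 0.07 (standard error 0.23, 95% interval -0.43 to 0.58, adjusted p = 0.948 from edgeR) to -0.17. It turned to -0.03 without CD-F0 replicate 1, the lowest CD-F0 library.

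mmu-mir-122, the hepatocyte miRNA, varied most from library to library. The CD-F0 replicates 1 to 5 were at 4.63, 8.71, 20.2, 100.8 and 3.45 RPM. The HFD-F0 replicates 1 to 5 were at 4.00, 6.87, 12.1, 8.26 and 57.1 RPM. In each group 1 library stood far above the others, CD-F0 replicate 4 at 4.99 times and HFD-F0 replicate 5 at 4.74 times the next highest of its group. From its lowest to its highest library the level differed 29.2-fold, and of the 321 hairpins with at least 100 reads in every library, 0 had a larger fold between libraries or a larger coefficient of variation than its 141% (median of the 321, 2.21-fold and 24.5%). Counting error does not cover this spread, as 3175 reads in CD-F0 replicate 4 had an exact 95% Poisson interval of 3066 to 3287 reads and 108 reads in CD-F0 replicate 5 had 88.6 to 130.4 reads. Such intervals cover counting error only.

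With these libraries, the group means of mmu-mir-122 were 27.6 ± 41.5 RPM in CD-F0 against 17.7 ± 22.2 RPM in HFD-F0 (SD, n = 5 each), a ratio of 0.640 (two-sided exact permutation p = 0.667). The medians, 8.71 RPM and 8.26 RPM, were close. The log2 fold change was -0.71 (standard error 0.98, 95% interval -2.84 to 1.42, adjusted p = 0.898 from edgeR). It turned to 0.93 without CD-F0 replicate 4 and fell to -1.93 without HFD-F0 replicate 5 (adjusted p = 0.477 from edgeR), and without both it was -0.30, so the direction depends on single libraries. Over the other 4 samples, the levels were 9.25 ± 7.65 RPM in CD-F0 against 7.80 ± 3.35 RPM in HFD-F0 (SD, n = 4 each).

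**Figure D4:**
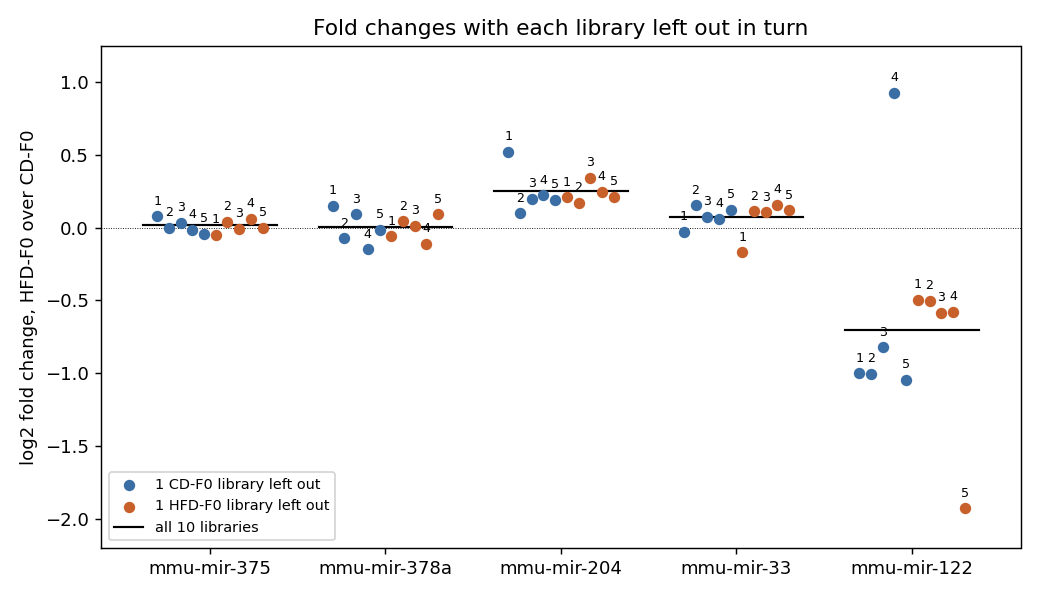
Log2 fold change of HFD-F0 over CD-F0 (vertical axis) for each member with 1 library left out (points, with the number of the replicate left out, blue for CD-F0 and orange for HFD-F0) and with all 10 libraries (line). mmu-mir-122 moves between -1.93 and 0.93, while mmu-mir-375 stays between -0.05 and 0.08.

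Beside the high mmu-mir-122 in these 2 libraries, other hairpins of liver, nerve and blood went in different directions. In CD-F0 replicate 4, mmu-mir-192 at 267 RPM and mmu-mir-194-1 at 47.3 RPM, both abundant in liver and gut, were the highest of the 10 libraries, whereas mmu-mir-148a, also abundant in liver, was the lowest at 66.3 RPM. In HFD-F0 replicate 5, mmu-mir-192 had 148 RPM, mmu-mir-194-1 had 12.1 RPM and mmu-mir-148a had 113 RPM, ranks 9, 10 and 7 from the top. mmu-mir-802, another miRNA of liver and islets, was at 0.0953 RPM in CD-F0 replicate 4 and at 0 in HFD-F0 replicate 5, and reached at most 5 reads in any library. Summed over 18 hairpins with roles in liver or lipid metabolism, CD-F0 replicate 4 had 4367 RPM, rank 5 of 10. HFD-F0 replicate 5 had 3991 RPM, rank 9. The highest means in that list were 1852 RPM for mmu-mir-27b, 782 RPM for mmu-mir-34a and 445 RPM for mmu-mir-223, also a blood marker. The rank of the sum therefore does not speak for liver RNA alone. From the same list, mmu-mir-128-1, which is abundant in brain, was high in both libraries, at 152 and 82.2 RPM against at most 66.2 RPM in the 8 libraries other than these. The neuronal miRNAs mmu-mir-9-1 and mmu-mir-124-1 were high in CD-F0 replicate 4 alone, at 220 and 117 RPM, with 27.3 and 23.7 RPM in HFD-F0 replicate 5 and at most 34.7 and 27.8 RPM in the other 8. Of the blood markers, the erythroid mmu-mir-451a ranked 3 from the top in CD-F0 replicate 4 and 10 in HFD-F0 replicate 5. In the same order, mmu-mir-486a ranked 5 and 10, at 18.6 and 5.94 RPM. The erythroid mmu-mir-144, at only 1.99 and 2.44 RPM, ranked 9 and 4, and the myeloid mmu-mir-223 ranked 10 and 4. The summed blood markers ranked 7 and 10. The part of any other tissue in the mmu-mir-122 reads was not tested.

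Over the 10 libraries, the hairpins whose log2 level was most like that of a member, among 524 miRNA hairpins outside the members, are given as a description. For mmu-mir-122 they were mmu-mir-128-2 and mmu-mir-128-1 (Pearson r = 0.82 for each), which share reads and were at 140 and 152 RPM in CD-F0 replicate 4 and at 73.1 and 82.2 RPM in HFD-F0 replicate 5, the 2 highest libraries for both. mmu-mir-378a was most like mmu-mir-378c (r = 0.98) and mmu-mir-378d (r = 0.96), and mmu-mir-204 most like mmu-mir-211 (r = 0.99), followed by mmu-mir-342 (r = 0.88), and the pairs within families share reads. For mmu-mir-33 they were mmu-mir-883a (r = 0.80) and mmu-mir-294 (r = 0.79), and for mmu-mir-375 mmu-mir-3102 (r = 0.83) and mmu-mir-1934 (r = 0.80). Among the members themselves, r ran from -0.68 between mmu-mir-122 and mmu-mir-378a to 0.29 between mmu-mir-378a and mmu-mir-204.

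Of 18 further hairpins with roles in liver or lipid metabolism, 15 had enough reads to be tested, and mmu-mir-802, mmu-mir-758 and mmu-mir-370 had not. By adjusted p, 0 of the 15 passed, and 4 of 15 had an unadjusted p under 0.05 in edgeR, beside 10.2% of all features. Their median log2 fold change was -0.08. The 3 most abundant were mmu-mir-27b, which acts on lipid genes in liver, at 1755 ± 80.9 RPM in CD-F0 against 1949 ± 398 RPM in HFD-F0 (SD, n = 5 each), mmu-mir-34a, a target of p53, at 798 ± 125 and 765 ± 366 RPM (SD, n = 5 per group), and mmu-mir-223 at 362 ± 13.7 and 528 ± 57.8 RPM (SD, n = 5 per group). The 4 with an unadjusted p under 0.05 were mmu-mir-223, mmu-mir-30c-1, mmu-mir-30c-2 and mmu-mir-192. The log2 fold change of mmu-mir-223, a myeloid miRNA that also acts on cholesterol handling, was 0.44 (adjusted p = 0.225 from edgeR). For mmu-mir-30c-1 and mmu-mir-30c-2, whose mature miRNA lowers lipoprotein assembly, it was 0.70 and 0.68 (adjusted p = 0.225 for each from edgeR). For mmu-mir-192 it was -0.46 (adjusted p = 0.331 from edgeR). mmu-mir-223 also belongs to the blood markers above. mmu-mir-30c-1 was at 204 ± 71.7 RPM in CD-F0 against 351 ± 36.1 RPM in HFD-F0 (SD, n = 5 each), and its groups overlapped. mmu-mir-30c-1 and mmu-mir-30c-2 make the same mature miRNA and are not independent.

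Of 17 hairpins with roles in islets or insulin action, 17 were tested, 0 passed by adjusted p and 3 passed the thresholds of the study, all 3 lower in the HFD-F0 group, beside 3.69% of all features. These 3 are not independent: they were the hairpins of miR-9, whose estimated reads were not whole in 7 of 10 libraries. That happens where reads are split, although a split can also leave a whole number. Their levels were nearly the same, 65.2, 65.2 and 65.5 RPM as CD-F0 means. They therefore amount to 1 measurement, and their count cannot be read against that share. miR-9, which makes β cells secrete less insulin and is abundant in neurons, had a log2 fold change of -1.43 for mmu-mir-9-1 (adjusted p = 0.430 from edgeR). Without CD-F0 replicate 4, it was -0.09, so the call rests on that library, as do those of mmu-mir-9-2 and mmu-mir-9-3, also at -0.09 and -0.08. Each of the 3 passed those thresholds in 4 of 10 fits with 1 library left out. The 3 most abundant hairpins of the list were mmu-mir-29a, mmu-mir-29c and mmu-mir-7a-1. mmu-mir-29a, which slows insulin signalling, was at 605 ± 134 RPM in CD-F0 against 677 ± 174 RPM in HFD-F0 (SD, n = 5 each), and mmu-mir-29c at 518 ± 116 and 573 ± 139 RPM (SD, n = 5 per group). mmu-mir-7a-1, an abundant islet miRNA, had 429.8 ± 85.5 and 448 ± 93.2 RPM (SD, n = 5 per group). The median of the list was -0.08.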

How the data were processed

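Small RNA of 18–30 nt was cut from a gel, ligated to adapters with molecular identifiers and sequenced on DNBSEQ. With the SPORTS pipeline, built on Bowtie and set to tolerate 1 mismatch, the authors annotated the cleaned reads (mm10 in the submitters' processing notes) and deposited estimated counts per RNA class and sub-class without normalization. Versions, and whether identifiers were collapsed, are not given in the sources used here. A read fitting several hairpins is split between them.

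Genome-matched and unmatched reads were added and divided by clean reads for RPM. Counts over 1470 features were rounded and fitted in edgeR 4.0.16 (R 4.3.3) with filterByExpr, TMM and its quasi-likelihood test. Adjustment by Benjamini-Hochberg covered the 814 features kept. The standard error was the log2 fold change over the square root of F. RPM was compared with exact permutation tests (Python 3.11.15, scipy 1.17.1). Likeness used log2 CPM with a prior count of 2. The fit was tested on simulated data. No pair of libraries was alike within sampling noise (chi-square per degree of freedom at least 381). Alternatives were DESeq2 1.42.0, other denominators, filters, read sets and scales, a replicate block and each library left out. The members and lists were chosen with earlier results of these data known, and named hairpins were all members, their relatives by name, the 3 most abundant of each list, those past a threshold, neighbours in rank and the 2 most alike. Others, such as mmu-mir-192, mmu-mir-148a, mmu-mir-30c-1 and mmu-mir-802, were named after their values were seen. mir-124 was listed as mir-124a and matched by its present name. Sequences of other hairpins are not reported here.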

Additional observations from a re-analysis of the deposited data

Results flagged for a closer look

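In 18 groups of 5 libraries, the level of a member or relative in 1 library was set against the rest of its group by Dixon's gap test at the 95% level. Chance flags about 1 group in 20, and 5 were marked. mmu-mir-122 was far above the others at 100.8 RPM in CD-F0 replicate 4 and at 57.1 RPM in HFD-F0 replicate 5. mmu-mir-33 was at 42.3 RPM in HFD-F0 replicate 1, the library with the largest share of miRNA reads. mmu-mir-204 at 74.7 RPM and mmu-mir-211 at 46.6 RPM were both high in CD-F0 replicate 1, and these hairpins share a seed and reads, so they are not separate marks. What set these libraries apart was not tested.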

How the results depend on the processing

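No member had an adjusted p under 0.05 under any of the 19 alternatives to its fit, and all 5 were present with a minimum of 5 or 20 reads. Leaving out each library in turn, the log2 fold change ran from -0.17 to 0.16 for mmu-mir-33, from -1.93 to 0.93 for mmu-mir-122, from -0.051 to 0.078 for mmu-mir-375, from -0.15 to 0.15 for mmu-mir-378a and from 0.10 to 0.52 for mmu-mir-204, and the RPM ratio from 0.930 to 1.24, 0.283 to 1.91, 1.02 to 1.14, 0.970 to 1.17 and 1.2 to 1.504 in the same order. The sign of mmu-mir-378a also turned with DESeq2 (-0.0030), over miRNA reads (ratio 0.991) and without the 2 libraries highest in mmu-mir-122 (-0.062), as did that of mmu-mir-375 without those 2 (-0.035). That setting and the summing of hairpins that share reads were chosen after seeing the data. mmu-mir-204 kept its sign in all 19.

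Across all features, 1 had an adjusted p under 0.05, against 14 with DESeq2, 5 with clean reads as library size, 0 with miRNA hairpins only (63 of these had an unadjusted p under 0.05) and 0 to 2 with 1 library left out. The thresholds of the study were passed by 30, against 59 with DESeq2, 93 with no filter, 19 with at least 10 counts in every sample, 12 with miRNA hairpins only and 22 to 50 with 1 library left out. The main fit tested 814 features, against 1449 with DESeq2 and 530 with miRNA hairpins only, so these counts have different totals. Beyond fewer or more features entering the filters, the cause was not tested. Same-numbered samples did not all deviate together (r from -0.19 to 0.34). Samples 1 and 3 were most like their own number, and samples 2, 4 and 5 were not. Such correlations cannot show whether the numbers pair the samples. With the replicate number as a block, 25 features passed the thresholds of the study, and the log2 fold change of mmu-mir-122 was -0.46.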
